A study of Mus musculus with 79 samples.

Results

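Collagens, laminins and their partners make up the extracellular matrix of muscle, and 57 such genes were followed here in mice lacking the nuclear receptor RORα in muscle and in mice lacking the clock repressor PER2 in muscle. A gene was taken where its symbol named a collagen chain (Col, number, a, number) or a laminin chain (Lama, Lamb or Lamc with a number), or where it was Nid1, Nid2, Hspg2, Fn1, Fbn1, Sparc, Dcn, Lum, Bgn or Postn. In the RORA set 57 of 14253 genes met this rule, and in the PER2 set 54 of 12952 did. Col2a1, Col19a1 and Col26a1 were listed in the RORA tables alone. Another 8 symbols that fit the rule in the GENCODE M21 annotation are in neither set (Col6a4, Col6a5, Col9a2, Col9a3, Col10a1, Col17a1, Col25a1 and Lama1) and were not analysed here.

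The study sequenced RNA from 79 muscles: 18 RORA MKO and 18 RORA CTRL libraries, and 24 PER2 MKO and 19 PER2 CTRL libraries. MKO is a muscle-specific knockout, and both kinds of CTRL mice are labelled WT. The samples were taken at zeitgeber time (ZT, hours after lights on) 0, 4, 8, 12, 16 and 20, with 3 mice per RORA genotype at each ZT, 4 PER2 MKO mice at each ZT and 3 or 4 PER2 CTRL mice. Which muscle was taken, the age and sex of the mice and the promoter that drives the deletion are not stated in the labels or design text, and the labels give no second treatment. The values are the authors' log2 fold changes, 1 per gene and ZT, so the depth of the libraries is unknown and the level of a gene in a single mouse was not analysed here. In the RORA set a fold change is that of MKO over CTRL. For the PER2 set nothing says which genotype was divided by which, so a PER2 value is called positive or negative as the authors deposited it, and not higher or lower in the knockout.

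Muscle fibres are wrapped in a basement membrane, a thin sheet in which a laminin network bound to the cell surface and a type IV collagen network are joined by nidogens and the proteoglycan perlecan. Laminin-211, built from the chains Lama2, Lamb1 and Lamc1, is the main laminin of the fibre surface and binds dystroglycan and integrin α7β1; loss of LAMA2 causes a congenital muscular dystrophy in people. Outside the basement membrane lie fibrils of type I and III collagen, trimmed and spaced by minor collagens and by small leucine-rich proteoglycans such as decorin, and type VI collagen microfilaments that tie fibrils to the basement membrane. Most of these proteins are made by fibroblasts, vessel cells and nerve sheath cells of the muscle as well as, or instead of, the fibre itself. In whole muscle, fewer cells of a type and less RNA per cell cannot be told apart.

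RORα binds DNA at the core AGGTCA, and E-boxes with CACGTG are sites of the clock activators that PER2 represses. Promoter windows from RefSeq (250 bases before to 50 bases after the gene start, build GRCm38.p6) were at hand for 46 of the 65 symbols that fit the rule, as 51 windows. They were searched on both strands for AGGTCA and CACGTG, whose matches can overlap since both hold CA. AGGTCA occurred in 9 of the 51 windows (17.6%), against 5340 of all 32851 windows (16.3%). These 9 belonged to Col4a4, Col6a5, Col7a1, Col9a1, Col11a1, Col20a1, Col23a1, Col24a1 and Postn. CACGTG occurred in none of the 51 and in 2349 of all windows (7.15%). The windows of Col7a1 (chr9:108953336-108953635, + strand) and Col24a1 (chr3:145292222-145292521, + strand) are printed because their genes had the lowest mean and the lowest adjusted p among those that rose in RORA MKO; capitals mark the match, which begins at position -140 of Col7a1, on the opposite strand and so read as TGACCT, and at position -138 of Col24a1, on the gene's own strand. The window of Col4a1 (chr8:11312777-11313076, - strand) is printed because Col4a1 and Col4a2 start head to head, and their windows share 78 bases; it holds neither motif.
Col7a1: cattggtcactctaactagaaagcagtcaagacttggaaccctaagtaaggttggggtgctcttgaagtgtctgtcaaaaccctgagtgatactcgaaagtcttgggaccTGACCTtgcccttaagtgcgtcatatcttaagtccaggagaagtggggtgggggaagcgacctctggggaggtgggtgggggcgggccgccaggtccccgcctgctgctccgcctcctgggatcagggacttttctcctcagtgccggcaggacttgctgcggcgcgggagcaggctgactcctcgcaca
Col24a1: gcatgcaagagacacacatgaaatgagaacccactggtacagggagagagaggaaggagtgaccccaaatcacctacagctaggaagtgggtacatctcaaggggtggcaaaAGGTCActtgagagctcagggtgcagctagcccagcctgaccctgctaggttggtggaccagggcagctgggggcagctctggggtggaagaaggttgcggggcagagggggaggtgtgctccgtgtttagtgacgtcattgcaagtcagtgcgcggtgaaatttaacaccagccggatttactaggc
Col4a1: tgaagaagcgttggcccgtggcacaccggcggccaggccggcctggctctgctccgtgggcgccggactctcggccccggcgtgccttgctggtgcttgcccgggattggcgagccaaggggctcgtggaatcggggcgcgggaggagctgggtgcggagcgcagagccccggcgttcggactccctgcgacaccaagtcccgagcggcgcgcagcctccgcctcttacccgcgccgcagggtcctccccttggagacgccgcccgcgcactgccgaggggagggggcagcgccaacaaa

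Of the targeted genes, Rora fell by 1.78 ± 0.15 on the log2 scale in RORA MKO (mean ± SD, n = 6 ZT), and Per2 averaged 0.37 ± 0.29 in the PER2 tables, which does not settle their direction. Among marker lists of other cell types, 11 of 12 endothelial markers rose in RORA MKO by their mean over ZT (median 0.14, against 18.9% of all genes higher), as did 4 of 9 pericyte and smooth muscle markers, while of 12 fibroblast markers 1 rose and 2 fell. All 5 listed red blood cell markers were negative in the PER2 set by their mean over ZT, with medians of -1.35 at ZT4 and -1.01 at ZT12, but 0.06 at ZT16, where 4 of 5 lay above 0. PER2 fold changes also went with transcript length at ZT4 and ZT12 (Spearman's rho across genes 0.52 and 0.44). The matrix genes are long, with a median transcript of 6.05 kb against 3.44 kb for all PER2 genes.

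Per kilobase of transcript, decorin and Sparc stood highest in both sets. In the RORA tables Dcn had a mean normalized count of 1230 per kb and Sparc 1010 per kb, followed by Col1a2 (417), Col3a1 (409) and Lamb2 (232). In the PER2 set the order of these 5 was the same, at 96.5, 92.6, 39.6, 33.4 and 20.4 CPM per kb. Of the basement membrane genes, Col4a1 stood at 222 normalized counts per kb in the RORA set, Nid1 at 195, Hspg2 at 170, Col4a2 and Lamc1 at 164 each, and Lama2 at 62.8. Col7a1 was a gene of middling level, at 28.7 per kb, the 29th of the 57. The lowest were Col2a1 in the RORA set (0.686 normalized counts per kb) and Col4a6 in the PER2 set (0.113 CPM per kb). These levels are means over all libraries of a set, so no spread between mice can be given.

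**Figure D1:**
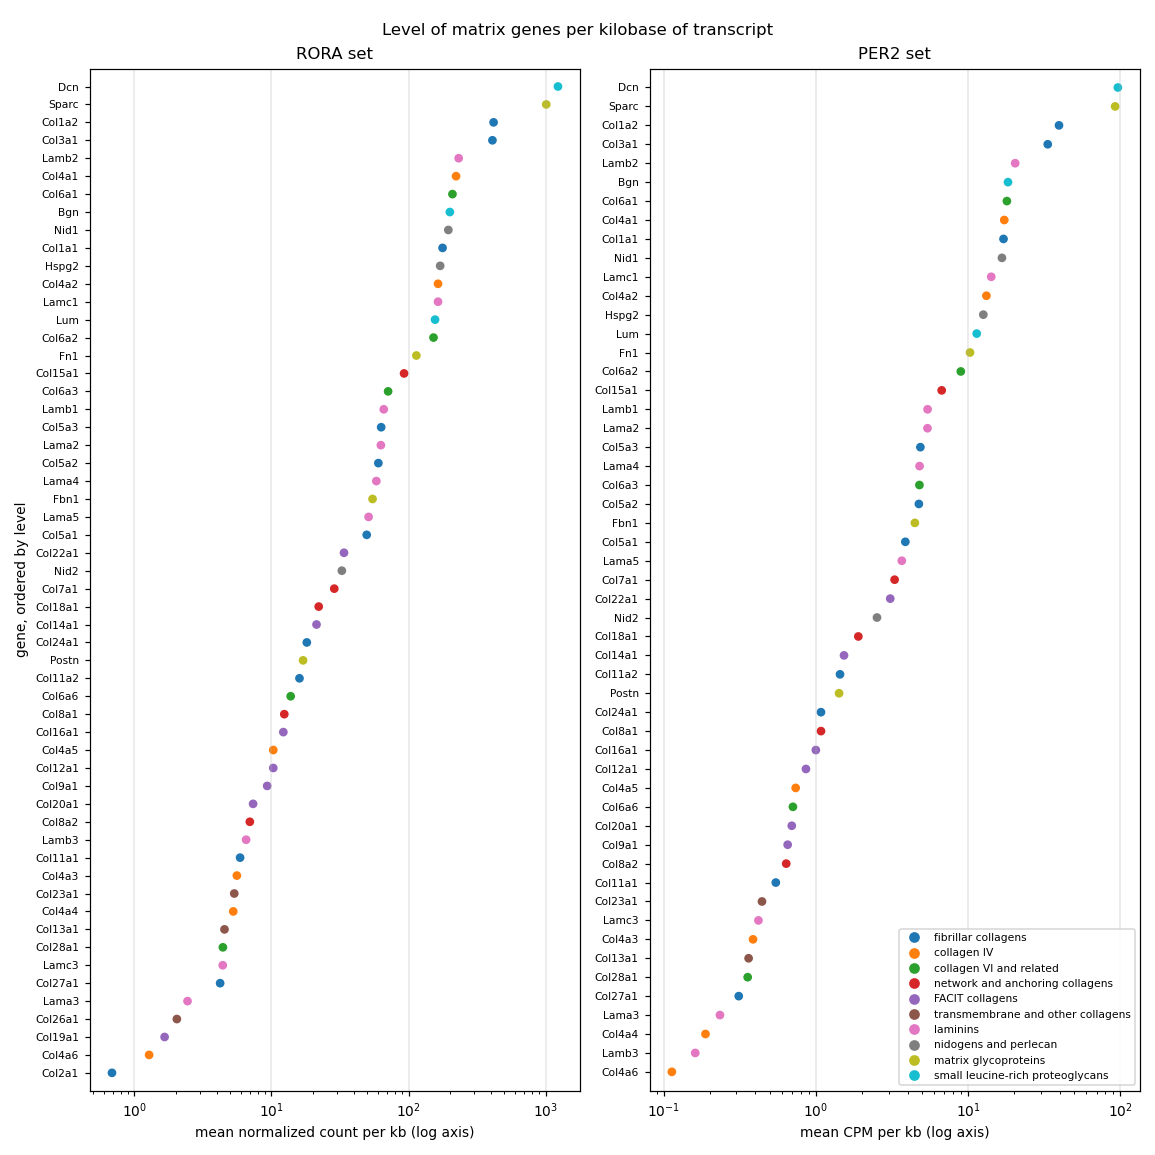
Level of each matrix gene shown, per kilobase of transcript, in mean normalized counts for the RORA set (left) and mean CPM for the PER2 set (right), on log axes, coloured by class. Dcn and Sparc stand highest in both sets, at 1230 and 1010 normalized counts per kb in the RORA set.

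In RORA MKO most matrix genes lay near their level in CTRL, with Col7a1 far below it. Over the 6 ZT, the mean log2 fold change of 13 of the 57 genes passed the test, 8 higher and 5 lower in RORA MKO. That is 22.8% of them, against 38.2% of all genes (18.9% higher, 19.3% lower). The test was an inverse-variance weighted mean with a Benjamini-Hochberg adjusted p under 0.05 over all 14253 genes. Summing z values by Stouffer's method instead, which uses the deposited p and not the error, 26 passed (45.6%), 20 higher and 6 lower, against 52.8% of all genes (27.4% higher, 25.3% lower). Those higher by the weighted mean were Col4a1, Col4a2, Col9a1, Col24a1, Lama5, Lamb2, Hspg2 and Bgn, and those lower were Col7a1, Col11a2, Col22a1, Lamc1 and Dcn. For the other 44, plain means lay between -0.14 and 0.17, and for 41 of them the 95% interval of the weighted mean stayed within 0.2 of 0 on the log2 scale, a change of under 14.9%. The deposited fold changes look shrunken towards 0 (their ratio to their error was 0.814 times the z value of the deposited p, by the median), so sizes and intervals may be understated.

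**Figure D2:**
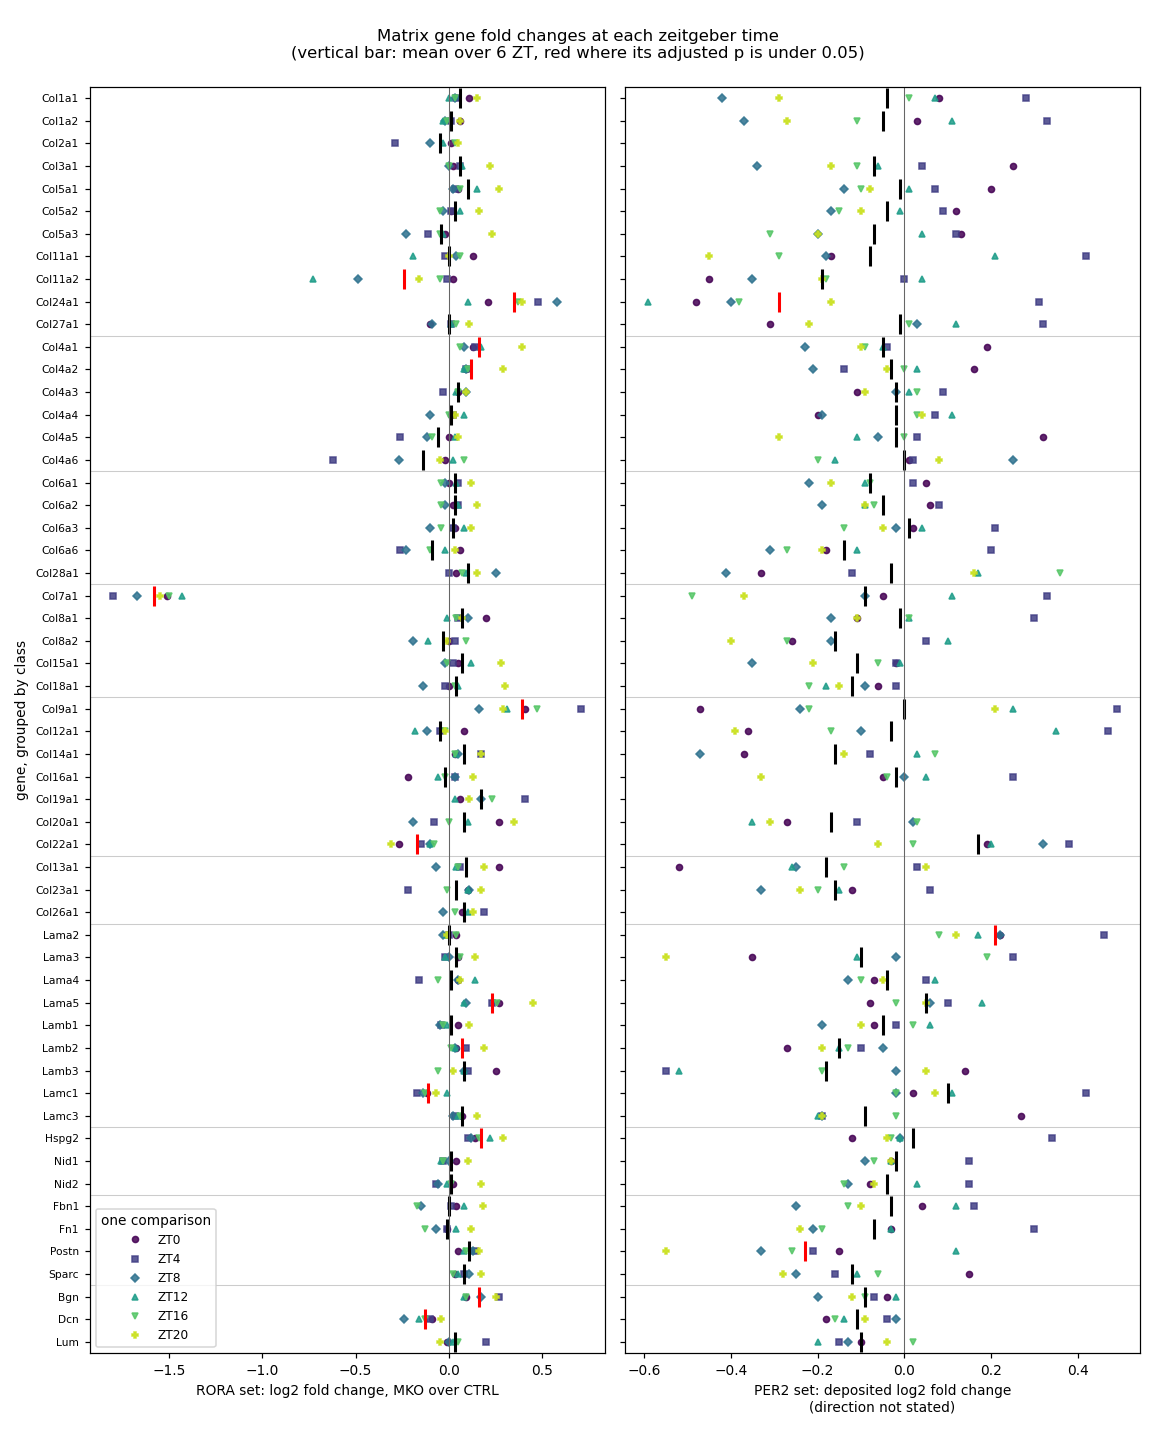
Deposited log2 fold change of matrix genes at each ZT, in the RORA set (left, MKO over CTRL, 56 genes shown) and the PER2 set (right, direction not stated, 53 genes shown), grouped by class. Vertical bars are means over the 6 ZT and are red where the adjusted p was under 0.05, which holds for 13 genes in the RORA set and 3 in the PER2 set; Col7a1 stands apart at -1.58 in the RORA set.

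Col7a1 encodes type VII collagen, the protein of the anchoring fibrils that fasten epithelial basement membranes to the tissue beneath. In the authors' deposited tables its log2 fold changes in RORA MKO from ZT0 to ZT20 were -1.51, -1.80, -1.67, -1.43, -1.50 and -1.55. It was called at each ZT, with a deposited adjusted p of at most 4.56e-55, and no other matrix gene was called at all 6 (8.64% of all genes were). The mean of -1.58 ± 0.14 (n = 6 ZT) is a level 0.337 times that of CTRL by the weighted mean. Only 1.26% of all genes had a mean of at least 1 in size, and Col7a1 was the single matrix gene among them. The fall did not change detectably with ZT (adjusted p 0.232 by Cochran's Q, a test of whether the effect is the same at all ZT).

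The genes beside Col7a1 were examined as well. Ucn2, which encodes the peptide urocortin 2, lies next to Col7a1 on the same strand, with 1134 bases between them in GENCODE M21. It fell by 1.84 ± 0.24 and was called at all 6 ZT, at a low mean normalized count of 12.7 (adjusted p 6.44e-46 by the weighted mean). On the other side, Uqcrc1, a subunit of respiratory complex III, rose by 0.22 ± 0.04. The means of the further neighbours Pfkfb4, Shisa5, Slc26a6, Nckipsd and Atrip lay between 0.00 and 0.08 and did not pass. Whether reads that run past the end of Col7a1 were counted to Ucn2 was not tested. Col7a1 and Rora itself share chromosome 9, where 37.5% of 801 genes were called against 38.3% of the genes elsewhere. A mean of at least 1 in size was found for 1.62% of the chromosome 9 genes, against 1.25% elsewhere. Shares over a whole chromosome cannot show what holds for the stretch around Rora, which was not tested.

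Among the 11 fibrillar collagens, 1 rose, 1 fell and 9 did not pass. Col24a1, a minor fibrillar collagen known from bone and cornea, had deposited log2 fold changes of 0.21, 0.48, 0.58, 0.10, 0.37 and 0.39 in RORA MKO at ZT0 to ZT20. All 6 were above 0 and 5 were called, with a mean of 0.35 ± 0.18 (adjusted p 3.61e-15 by the weighted mean). Its effect was smallest at ZT12, and its change with ZT passed by Cochran's Q (adjusted p 0.0439) but not by Q on z values (0.0853). Col11a2, a chain of the cartilage-type collagen XI, fell by 0.24 ± 0.30. Its deposited values from ZT0 to ZT20 were 0.02, -0.01, -0.49, -0.73, -0.05 and -0.16, lowest at ZT8 and ZT12, the times at which it was called. At ZT12, 4 of the 10 tendon cell markers were called lower too (median over the 10, -0.19), with Comp at -1.08, Chad at -1.02, Fmod at -0.54 and Angptl7 at -0.53; at ZT8 none was called lower (median -0.09). Their part in the Col11a2 result was not tested. The adjusted p was 0.00331 for its mean (0.13 without ZT12, 0.118 with limma on the 6 values) and 0.000326 for its change with ZT.

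The main fibril formers stayed within narrow bounds in RORA MKO. Col1a1, the α1 chain of type I collagen, had deposited log2 fold changes of 0.11, 0.04, 0.03, 0.00, 0.03 and 0.15 from ZT0 to ZT20, a mean of 0.06 ± 0.06 with a 95% interval of the weighted mean from -0.04 to 0.15. Its partner Col1a2 averaged 0.01 ± 0.04. For Col3a1, the homotrimeric type III collagen of pliable tissue, the authors' deposited values were 0.02, 0.06, 0.00, 0.07, 0.00 and 0.22 (mean 0.06 ± 0.08, interval -0.04 to 0.14), and it was called at ZT20 alone. Col5a1, Col5a2 and Col5a3, which set fibril diameter, averaged 0.10, 0.03 and -0.04. Col5a3 was called lower at ZT8 (-0.23) and higher at ZT20 (0.23). Its adjusted p for change with ZT was 0.0538 by Cochran's Q and 0.00207 by Q on z values. The remaining fibrillar chains Col2a1, Col11a1 and Col27a1 averaged -0.05, 0.00 and 0.00.

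In type IV collagen, the pair found in all basement membranes rose and the tissue-restricted chains did not pass. Col4a1 had deposited log2 fold changes of 0.13, 0.14, 0.08, 0.17, 0.06 and 0.39 in RORA MKO from ZT0 to ZT20, with a mean of 0.16 ± 0.12 (adjusted p 0.000259 by the weighted mean). Col4a2, its partner in the α1α1α2 trimer, had 0.09, 0.09, 0.09, 0.08, 0.10 and 0.29, with a mean of 0.12 ± 0.08 (adjusted p 0.00372, and 0.0551 without ZT20). Both were above 0 at all 6 ZT, and each was called at ZT20 alone. Col4a3, Col4a4, Col4a5 and Col4a6 averaged 0.05, 0.01, -0.06 and -0.14.

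Type VI collagen, whose mutation causes Ullrich and Bethlem myopathies, did not pass in RORA MKO. The deposited values of Col6a1 were 0.00, 0.05, -0.02, 0.04, -0.04 and 0.12 from ZT0 to ZT20, a mean of 0.03 ± 0.06 (interval -0.04 to 0.08). For Col6a2 they were 0.02, 0.05, -0.02, 0.05, -0.04 and 0.15 (mean 0.03 ± 0.07, interval -0.03 to 0.09). Col6a3 had 0.03, 0.02, -0.10, 0.08, -0.04 and 0.12 in the same tables (mean 0.02 ± 0.08, interval -0.04 to 0.08). These 3 chains, which assemble into 1 protein, moved within 0.08 of each other at each ZT. Col6a6 averaged -0.09 and the related Col28a1 0.10, neither passing.

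Of the 7 fibril-associated collagens with interrupted triple helices (FACIT), 1 rose and 1 fell. Col9a1, a chain of the cartilage collagen IX, had deposited log2 fold changes of 0.41, 0.71, 0.16, 0.31, 0.47 and 0.29 in RORA MKO and rose by 0.39 ± 0.19, being called at every ZT but ZT8 (adjusted p 4.18e-07 by the weighted mean). Its level was low, at 9.30 normalized counts per kb. Col22a1, which in muscle marks the junction with tendon, had -0.27, -0.15, -0.10, -0.10, -0.08 and -0.31, below 0 at all 6 ZT, and fell by 0.17 ± 0.10 (adjusted p 1.79e-08). Of the 10 tendon cell markers 1 rose (Thbs4, 0.24) and 1 fell (Kera, -0.17), and their part in the Col22a1 result was not tested. Col12a1, Col14a1, Col16a1, Col19a1 and Col20a1 averaged -0.05, 0.08, -0.02, 0.17 and 0.08. Of the other collagens, the vessel-wall collagens Col8a1 and Col8a2 averaged 0.07 and -0.03, and Col15a1 and Col18a1, the source of endostatin, 0.07 and 0.04. Col13a1, a transmembrane collagen of the neuromuscular junction, averaged 0.09, with Col23a1 at 0.04 and Col26a1 at 0.08.

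Of the 10 laminin chains, 2 rose, 1 fell and 7 did not pass. Lama5, the α chain of laminin-511, a laminin of vessel walls and the neuromuscular junction, had deposited log2 fold changes of 0.27, 0.23, 0.09, 0.08, 0.26 and 0.45 in RORA MKO from ZT0 to ZT20. It rose by 0.23 ± 0.14 (adjusted p 7.61e-14 by the weighted mean), with 4 of 6 ZT called, and changed with ZT (adjusted p 0.0165), lowest at ZT8 and ZT12. Lamc1, the γ chain shared by most laminins, had -0.12, -0.17, -0.14, -0.01, -0.13 and -0.07 and fell by 0.11 ± 0.06 (adjusted p 3.57e-05). Lamb2, the β chain of synaptic laminin, had 0.04, 0.09, 0.03, 0.03, 0.01 and 0.19, a mean of 0.07 ± 0.07 that passed (adjusted p 0.0189) but not without ZT20 (0.273) or without ZT4 (0.0521). Lama2 showed little in any RORA comparison: its deposited values were 0.04, 0.00, -0.03, -0.01, 0.04 and -0.01, a mean of 0.00 ± 0.03 with an interval from -0.03 to 0.04. Its partner Lamb1 had 0.05, -0.04, -0.05, -0.01, -0.03 and 0.11 (mean 0.01 ± 0.06, interval -0.05 to 0.06). Lama4 averaged 0.01, Lamc3 0.07, and the epithelial chains Lama3 and Lamb3 averaged 0.04 and 0.08; none of these passed.

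Hspg2 encodes perlecan, the large heparan sulfate proteoglycan of basement membranes. The authors' deposited log2 fold changes in RORA MKO were 0.14, 0.10, 0.12, 0.22, 0.16 and 0.29 from ZT0 to ZT20, all above 0 and 4 of them called. Its mean of 0.17 ± 0.07, a rise of 12.6% by the weighted mean, had an adjusted p of 9.33e-11. The linker Nid1 had deposited values of 0.04, -0.03, 0.00, -0.04, -0.03 and 0.10 (mean 0.01 ± 0.05, interval -0.04 to 0.06), and Nid2 averaged 0.01 ± 0.08.

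Of the matrix glycoproteins none passed by the weighted mean. Fibronectin, Fn1, a scaffold for fibril assembly, had deposited values of -0.01, -0.01, -0.07, 0.04, -0.13 and 0.12 in RORA MKO, a mean of -0.01 ± 0.09 (interval -0.07 to 0.06). Fibrillin, Fbn1, averaged 0.00, the collagen-binding Sparc 0.08 and periostin, Postn, 0.11. The adjusted p of Postn was 0.112, but 0.000939 by Stouffer's sum, 0.0157 with the length and GC trend removed and 0.00836 with limma. Of the 3 small leucine-rich proteoglycans, 1 rose and 1 fell. Bgn, biglycan, which binds the dystrophin complex, had deposited values of 0.09, 0.27, 0.17, 0.08, 0.09 and 0.25 and rose by 0.16 ± 0.09 (adjusted p 2.39e-05 by the weighted mean). Dcn, decorin, which coats type I fibrils, had -0.09, -0.10, -0.24, -0.16, -0.13 and -0.04 and fell by 0.13 ± 0.07 (adjusted p 3.32e-09). Lum, lumican, averaged 0.03 ± 0.09.

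**Figure D3:**
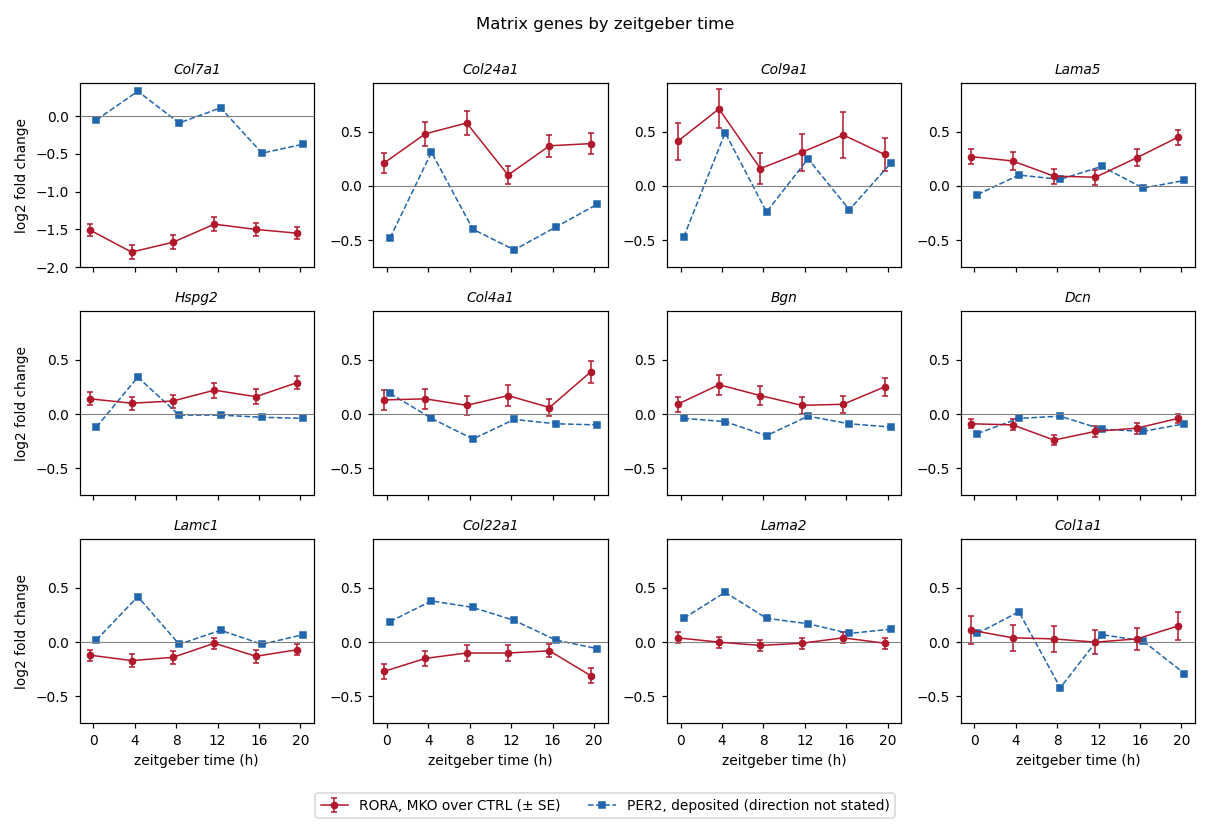
Log2 fold change of 12 matrix genes against zeitgeber time in the RORA set (red circles, MKO over CTRL, bars are the deposited standard errors) and the PER2 set (blue squares, as deposited, direction not stated). Col7a1 has its own vertical scale and lies between -1.43 and -1.80 in the RORA set, while the other 11 share a scale.

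By time of day, the matrix genes called in RORA MKO were most at ZT20. At ZT0 the authors' deposited adjusted p called 12 of the 57 (28.1% of all genes), 8 of them higher (14.8%) and 4 lower (13.4%). ZT4 had 13 (29.0% of all genes), 6 higher (14.8%) and 7 lower (14.2%), and ZT8 had 8 (27.8%), 2 higher (13.7%) and 6 lower (14.1%). ZT12 had 5 (22.1%), 2 higher (11.0%) and 3 lower (11.1%), and ZT16 had 7 (20.7%), 4 higher (10.4%) and 3 lower (10.3%). At ZT20 there were 19 (32.2% of all genes). Of these, 17 were higher, which is 29.8% of the matrix genes against 16.6% of all genes, and 2 were lower, against 15.6% of all genes. In all, 32 of the 57 (56.1%) were called at 1 ZT or more, against 58.1% of all genes, and 18 (31.6%) had the same sign at all 6 ZT, against 34.6%. The median over the matrix genes was 0.13 at ZT20, where 46 of the 57 lay above 0, and between -0.02 and 0.04 at the other ZT, while the median over all genes was between 0.00 and 0.01. The 17 were Col3a1, Col4a1, Col4a2, Col5a1, Col5a3, Col6a2, Col9a1, Col15a1, Col18a1, Col20a1, Col24a1, Lama5, Lamb2, Hspg2, Nid2, Fbn1 and Bgn. They include both abundant fibril and basement membrane chains, but not Col1a1 (0.15), Lama2 (-0.01) or Nid1 (0.10). Transcript length and GC content held 4.41% of the variance of RORA fold changes at ZT20, and at most 1.68% at the other ZT. Spearman's rho with length was -0.11 at ZT20. The part of this trend in the ZT20 counts was not tested.

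Markers of several other cell types moved at ZT20 too. At that time 10 of 12 endothelial markers were called higher (median 0.24), 8 of 9 pericyte and smooth muscle markers (0.19), 10 of 10 Schwann cell markers (0.55) and 7 of 8 white adipocyte markers (0.44), against 2 of 12 fibroblast markers (0.08). Schwann cell markers were at -0.32 at ZT4 and white adipocyte markers at -0.50 at ZT0, when the matrix medians were 0.02 and 0.04. Endothelial markers stood about as high at ZT8, with 10 of 12 called higher (median 0.25), when the matrix median was -0.02. All markers of these lists were detected, the lowest at 7.42 mean normalized counts. In further lists at ZT20, all 4 listed red blood cell markers were called higher (median 0.27). So were 2 of 12 macrophage and leukocyte markers (0.12) and 1 of 6 satellite cell markers (0.06). Of 10 tendon cell markers 0 were called (-0.02), and of 15 myofibre markers 3 were called higher and 5 lower (-0.07). The part of these cells in the ZT20 values of the matrix genes was not tested. A change of the effect with ZT was called for 3 matrix genes (Col11a2, Lama5 and Col24a1), or 5.26%, against 11.0% of all genes.

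**Figure D4:**
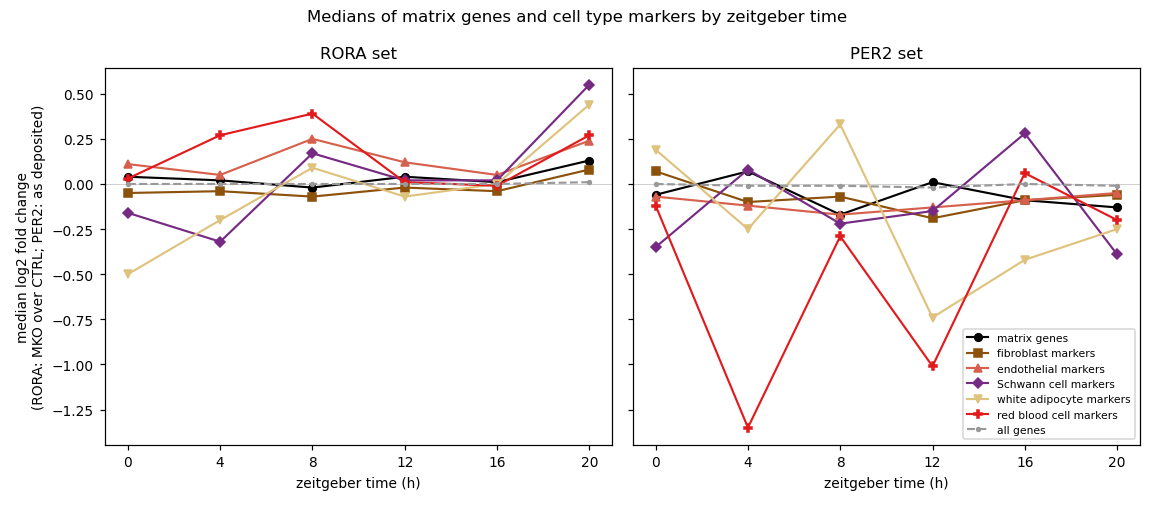
Median log2 fold change of the matrix genes, of marker lists of 5 other cell types and of all genes against zeitgeber time, in the RORA set (left, MKO over CTRL) and the PER2 set (right, as deposited). In the RORA set the matrix median is 0.13 at ZT20 and within 0.04 of 0 before it; in the PER2 set red blood cell markers are at -1.35 at ZT4.

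Few matrix genes were called in the PER2 set. At ZT4 the authors' deposited tables called Lama2 and Lamc1, both positive, which is 2 of 54 genes (3.7%) against 12.2% of all genes (5.49% positive). None was called at ZT0, ZT8, ZT12, ZT16 or ZT20, where 2.7%, 1.78%, 3.34%, 0.811% and 1.52% of all genes were; at an unadjusted p under 0.05 there were 3, 2, 1, 1 and 3 at these times, against 11.7%, 10.9%, 17.4%, 6.32% and 8.85% of all genes. With the trend of fold change on transcript length and GC content removed, none was called at ZT4 either. That trend held 24.1% of the variance at ZT4. No share of all genes called without it is given, so this count cannot be judged against one. By Stouffer's sum over the 6 ZT, 3 of the 54 (5.56%) passed, 1 positive and 2 negative, against 21.6% of all genes (10.9% positive, 10.6% negative). The 95% interval of the mean stayed within 0.2 of 0 for 20 of the 51 genes that did not pass, against 41 of 44 in the RORA set. These 2 counts are not alike in kind, since the RORA fold changes look shrunken and the PER2 error was derived.

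A single sign at all 6 ZT was seen for 6 of the 54 genes (11.1%), against 18.6% of all genes. Lama2 was among them, with deposited log2 fold changes of 0.22, 0.46, 0.22, 0.17, 0.08 and 0.12 from ZT0 to ZT20. Its mean was 0.21 ± 0.13 (adjusted p 5.13e-05 by Stouffer's sum), and 0.14 with the length and GC trend removed (adjusted p 0.0128). The other chains of laminin-211 did not pass: Lamc1 had 0.02, 0.42, -0.02, 0.11, -0.02 and 0.07 in the PER2 tables (mean 0.10 ± 0.16) and Lamb1 had -0.07, -0.02, -0.19, 0.06, 0.02 and -0.10 (mean -0.05 ± 0.09). Col24a1 had deposited values of -0.48, 0.31, -0.40, -0.59, -0.38 and -0.17, negative at every ZT but ZT4, with a mean of -0.29 ± 0.32 (adjusted p 0.0111, but 0.105 without ZT12, 0.0561 without ZT0 and 0.146 with limma). Postn, a matricellular protein that is known to rise in repairing muscle, had -0.15, -0.21, -0.33, 0.12, -0.26 and -0.55, a mean of -0.23 ± 0.22 (adjusted p 0.0412). That call was lost on leaving out any of ZT4, ZT8, ZT16 or ZT20 (0.0728 to 0.247) and with limma (0.111).

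The main matrix chains did not pass in the PER2 set, and several had both signs over the day. Deposited values of Col1a1 were 0.08, 0.28, -0.42, 0.07, 0.01 and -0.29 (mean -0.04 ± 0.26), and those of Col3a1 were 0.25, 0.04, -0.34, -0.06, -0.11 and -0.17 (mean -0.07 ± 0.20). Col4a1 had 0.19, -0.04, -0.23, -0.05, -0.09 and -0.10 and Col4a2 had 0.16, -0.14, -0.21, 0.03, 0.00 and -0.04 in the same tables. These chains shared their lowest value at ZT8. For the type VI chains the authors' deposited values were 0.05, 0.02, -0.22, -0.09, -0.08 and -0.17 in Col6a1 (mean -0.08 ± 0.10). Col6a2 had 0.06, 0.08, -0.19, -0.09, -0.07 and -0.09 in those tables (mean -0.05 ± 0.10), and Col6a3 had 0.02, 0.21, -0.02, 0.04, -0.14 and -0.05 (mean 0.01 ± 0.11). Lamb2 was negative at all 6 ZT, with deposited values of -0.27, -0.10, -0.05, -0.15, -0.13 and -0.19 (mean -0.15 ± 0.08, adjusted p 0.0828). Nid1 had -0.03, 0.15, -0.09, -0.03, -0.07 and -0.03 (mean -0.02 ± 0.09), and Hspg2 had -0.12, 0.34, -0.01, -0.01, -0.03 and -0.04 (mean 0.02 ± 0.16), each with its highest value at ZT4. Fn1 likewise had -0.03, 0.30, -0.21, -0.03, -0.19 and -0.24 in the deposited tables (mean -0.07 ± 0.20). Col9a1 had -0.47, 0.49, -0.24, 0.25, -0.22 and 0.21, changing sign from each ZT to the next (mean 0.00 ± 0.37). Col7a1 had deposited values of -0.05, 0.33, -0.09, 0.11, -0.49 and -0.37, a mean of -0.09 ± 0.30 (adjusted p 0.522). The median over the matrix genes was 0.07 at ZT4 and -0.17 at ZT8, where 7 of 54 lay above 0, with -0.13 at ZT20. Fibroblast markers had medians of -0.10, -0.07 and -0.06 at those times and endothelial markers -0.12, -0.17 and -0.05. Tendon cell markers had 0.30, -0.12 and -0.24 at ZT4, ZT8 and ZT20, pericyte and smooth muscle markers 0.12, -0.08 and -0.08, and Schwann cell markers 0.08, -0.22 and -0.39, so these lists had the signs of the matrix median. The part of these cells was not tested. Change with ZT was called for none of the 54 genes by Cochran's Q (0.0463% of all genes), and none had an unadjusted p under 0.05. The smallest adjusted p were 0.624 for Col24a1, 0.664 for Col7a1, 0.704 for Col12a1 and 0.715 for Lamc1. Col12a1, a collagen of tendon and muscle connective tissue, had deposited values of -0.36, 0.47, -0.10, 0.35, -0.17 and -0.39 (mean -0.03 ± 0.36).

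The effects in the 2 sets were compared gene by gene over the 54 genes in both. Since it is not known which PER2 genotype is on top, a difference was called where it passed both with the PER2 sign as deposited and with it turned round, with a Benjamini-Hochberg adjusted p over 11429 shared genes. This held for 3 matrix genes (5.56%), against 13.3% of all genes. The test sets RORA fold changes that look shrunken against PER2 fold changes with a derived error, so the 2 sides are unlike measures. Col7a1 had a weighted mean of -1.57 (SE 0.035) in the RORA set and -0.10 (SE 0.093) in the PER2 set, and the larger adjusted p was 7.41e-48. Lama2 stood at 0.00 (SE 0.020) in the RORA set and 0.21 (SE 0.045) in the PER2 set (larger adjusted p 0.000188). That difference was tested with the length and GC trend left in, and without the trend the PER2 mean of Lama2 was 0.14. Col9a1 stood at 0.36 (SE 0.067) in the RORA set and 0.01 (SE 0.119) in the PER2 set (0.0356). Col24a1 was the matrix gene called in both sets, positive in the RORA set and negative as deposited in the PER2 set. Opposite deposited signs were also found for 1400 of the 1638 genes (85.5%) called in both sets, so the signs of Col24a1 follow those of most such genes.

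Many genes of the receptors that hold the basement membrane changed in RORA MKO. Of 15 genes of the dystrophin-glycoprotein complex, which links laminin to the cytoskeleton, 2 rose and 9 fell, against 18.9% of all genes higher and 19.3% lower. Dmd, dystrophin, fell by 0.49 ± 0.11 and was called at all 6 ZT (adjusted p 1.33e-105 by the weighted mean). The sarcoglycan Sgcb fell by 0.31 ± 0.05 and sarcospan, Sspn, by 0.38 ± 0.04, while the adaptor Sntb1, syntrophin β1, rose by 1.06 ± 0.10, to 2.08 times the CTRL level. Dag1, which encodes dystroglycan itself, fell by 0.09 ± 0.08. In the PER2 set 5 of these 15 genes were positive and 1 negative, against 10.9% and 10.6% of all genes; the mean deposited value of Dmd was 0.70 ± 0.10, Sgcb 0.36 ± 0.14 and Sntb1 -0.63 ± 0.24. All 5 genes of the complex called in both sets had opposite deposited signs, as did 85.5% of all genes called in both sets. With the direction of the PER2 tables unstated, it cannot be told whether the 2 knockouts moved these genes the same way or opposite ways.

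**Figure D5:**
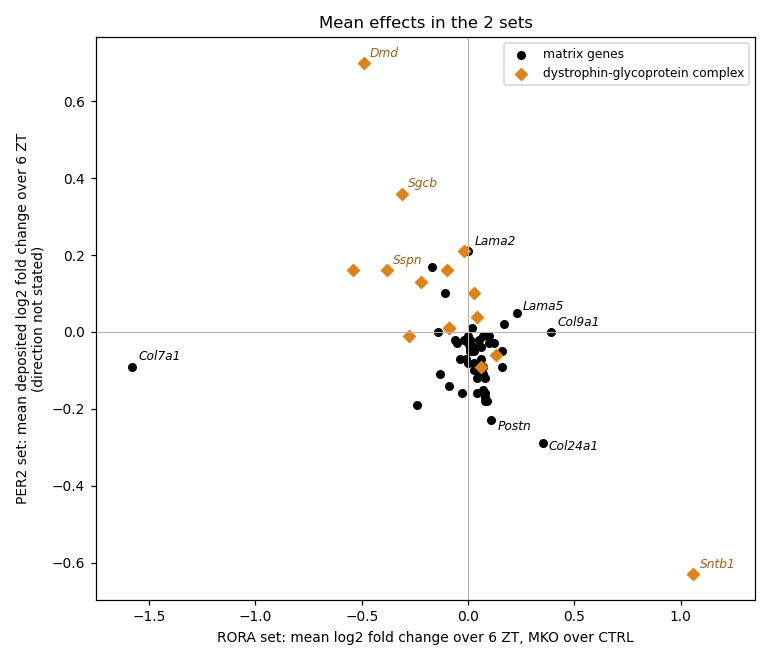
Mean log2 fold change over 6 ZT in the RORA set (horizontal, MKO over CTRL) against the mean deposited log2 fold change in the PER2 set (vertical, direction not stated), for 53 matrix genes (black) and the dystrophin-glycoprotein complex (orange). Col7a1 lies far to the left at -1.58, and Dmd (-0.49, 0.70) and Sntb1 (1.06, -0.63) lie on opposite sides of both axes.

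Enzymes that put the laminin-binding sugar on dystroglycan, and other receptors, were examined next, against the same shares of all genes. In RORA MKO 2 of 15 rose and 5 fell, and B3galnt2 fell by 0.58 ± 0.09 and Rxylt1 by 0.13 ± 0.05. Among the 16 listed for PER2, 5 were positive and 2 negative, with B3galnt2 at 0.44 ± 0.13 and Pomk at -0.35 ± 0.10. Of 20 integrins and other collagen or laminin receptors, 9 rose and 2 fell in RORA MKO. Itga3, the α3 chain of a laminin receptor, rose by 0.52 ± 0.20, Itga5, of the fibronectin receptor, by 0.26 ± 0.08 and Itgav by 0.21 ± 0.08. Of the chains of integrin α7β1, Itga7 fell by 0.07 ± 0.07 and Itgb1 did not pass (0.01 ± 0.07). Among the 19 listed for PER2, 1 was positive and 3 negative, with Itgb1 at 0.19 ± 0.08, Itga3 at -0.28 ± 0.10 and Bcam at -0.19 ± 0.16.

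Genes that make, cut and induce collagen were counted against the same shares of all genes, 18.9% higher and 19.3% lower in the RORA set and 10.9% positive and 10.6% negative in the PER2 set. Of 28 genes of collagen processing and crosslinking, 2 rose and 4 fell in RORA MKO. Of the subunits of prolyl 4-hydroxylase, P4hb fell by 0.27 ± 0.08 and P4ha1 by 0.21 ± 0.07, while P4ha2 did not pass by its mean. The crosslinking enzyme Loxl1 rose by 0.23 ± 0.10. As deposited for PER2, 1 of 28 was positive (P4ha1, 0.19 ± 0.09) and 1 negative (Adamts3, -0.36 ± 0.41). Of 21 matrix proteases and inhibitors, 3 rose and 4 fell in RORA MKO, with Adamts5 falling by 0.48 ± 0.14, the inhibitor Timp3 by 0.24 ± 0.12 and Adamts1 by 0.21 ± 0.15. Of 19 in the PER2 set 3 were positive and none negative: Adamts5 (0.28 ± 0.14), Timp3 (0.14 ± 0.18) and Adamts1 (0.22 ± 0.24). Of 18 genes of TGF-β signalling, which drives collagen transcription, 3 rose and 6 fell in RORA MKO, among them Tgfbr3 (-0.30 ± 0.08), Tgfb3 (-0.23 ± 0.12) and Tgfbr1 (-0.21 ± 0.10). Among the 18 listed for PER2, 3 were positive and none negative, Tgfb3 at 0.29 ± 0.06, Tgfbr1 at 0.31 ± 0.12 and Skil at 0.32 ± 0.26. Each of these values is a mean ± SD over 6 ZT of genes past the test of their set.

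Over the 12 comparisons of both sets, with PER2 signs as deposited, the fold changes most like those of Col1a1 among 11428 shared genes were those of Ikzf1 (Pearson's r 0.962), its partner chain Col1a2 (0.957) and Cntln (0.923). With the PER2 signs turned round these 3 stayed first, at 0.956, 0.95 and 0.928. The turn was made for all genes at once, so it changes only how the 2 sets stand to each other. Col1a1 varied less over ZT in the RORA set (SD 0.06) than in the PER2 set (SD 0.26). Its likeness values therefore rest mostly on the PER2 comparisons. For Col4a1 the order depended on that sign: S1pr3 (0.967) and Pcolce (0.962) stood first as deposited but at 0.529 and 0.476 with the sign turned. Col5a1 had 0.919 as deposited and 0.945 turned, and the partner chain Col4a2 had 0.914 and 0.881. The 6 comparisons of a set come from 1 experiment and may share its length trend, and these values are descriptions of 12 points.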

How the data were processed

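The authors deposited 12 comparison tables, 1 per set and ZT. The submitters' processing notes list bcl2fastq 2.20.0.422, STAR, Trimmomatic, MultiQC, DESeq2 and R 4.1, and builds GRCm39 and mm9; how reads were counted and what each build served is not stated. Per the file headers, each RORA table gives a mean normalized count (a signal level, equal in all 6 tables), a log2 fold change with standard error, and a p-value with its adjusted form. Per the labels, RORA genes had passed a filter of 10 reads in 3 samples. Each PER2 table gives, per the file headers, the log2 fold change, average log2 CPM, likelihood ratio (a score), p-value and FDR but no error, so one was derived as the fold change over the z value of its p. Benjamini-Hochberg values recomputed from the p matched the deposited ones within 1.3e-14.

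Calls at a ZT use the authors' adjusted p under 0.05. Means over ZT were tested by an inverse-variance weighted mean (RORA) or by summing signed z values after Stouffer (PER2), change with ZT by Cochran's Q (5 degrees of freedom), and the sets against each other on their weighted means, each with a two-sided normal p adjusted over all genes. Printed means and SDs are over the 6 ZT. The scripts were tested on simulated data. GENCODE M21, on another build, named 893 RORA genes (13339 had a deposited symbol) and gave transcript length, GC content and gene order. All 6 values are given for genes called at all 6 ZT, the 3 highest and 3 lowest means past the test, the smallest p of change with ZT, genes that differ between sets and the main subunits of muscle matrix; each pathway list gives its 3 smallest p. Some genes counted in the lists are not reported here by name or drawn. Other genes with values were added after their values were seen. The members, gene lists and tests were chosen with earlier results of these data known. Values per library, and so depth, were not analysed here. Python 3.11.15, NumPy 2.4.6, pandas 2.3.3, SciPy 1.17.1, matplotlib 3.10.9, R 4.3.3 and limma 3.58.1 were used.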

Additional observations from a re-analysis of the deposited data

Results flagged for a closer look

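The RORA effect differed between ZT for 3 matrix genes by Cochran's Q, with adjusted p of 0.000326 for Col11a2, 0.0165 for Lama5 and 0.0439 for Col24a1 (0.0853 by Q on z values). Col11a2 was lowest in RORA MKO at ZT8 and ZT12, and Lama5 highest at ZT20.

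The RORA effect differed from the PER2 effect under both readings of the PER2 sign for Col7a1 (larger adjusted p 7.41e-48), Lama2 (0.000188) and Col9a1 (0.0356). These values were taken with the length and GC trend left in.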

How the results depend on the processing

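No result changed direction under the alternatives run. No paired analysis was possible because the files hold comparisons and not values per library. No mouse was left out, for want of such values; each ZT was left out in turn. Depth is unknown. Of the 13 matrix genes past the RORA test, 10 passed under each alternative that kept them; Col11a2, Col4a2 and Lamb2 did not. Lamb2 reached an adjusted p of 0.367 and Col4a2 0.0528 with the length and GC trend removed. Matrix genes higher in RORA MKO numbered 20 with Stouffer's sum. Postn and Lum (0.0149) passed with the trend removed, and Postn and Col19a1 (0.0385) with limma. The likeness values with the PER2 sign turned were chosen after seeing the data. At an adjusted p under 0.01, matrix genes called in the RORA set numbered 5, 8, 5, 5, 4 and 14 from ZT0 to ZT20, against 21.4%, 20.7%, 20.3%, 16.2%, 14.3% and 23.4% of all genes. With Q on z values the RORA effect changed with ZT for 7 matrix genes, Col24a1 not among them. These were Col5a3, Col11a2, Col18a1, Col20a1, Lama4, Lama5 and Fbn1. With a ZT left out, Cochran's Q called 1 to 5 (1 without ZT8, 5 without ZT16). No share of all genes is given for these counts, so they cannot be set against the 11.0% of the main test. In the PER2 set, negative matrix genes numbered 1 with any ZT left out and 0 with limma. Of the 54, 11 were negative with an unadjusted limma p under 0.05. No share of all genes at that cut is given, so that count cannot be judged against it. Positive ones numbered 1 to 2 with a ZT left out and 2 with each ZT centred on the median of all genes, the second being Col22a1. For the PER2 counts with a ZT left out, with limma or with centring, no share of all genes is given either. Those counts cannot be read as results about the matrix genes. Matrix genes called at ZT4 numbered 1 at an adjusted p under 0.01, against 4.38% of all genes. They numbered 0 with the trend removed, for which no share of all genes is given. The causes were not tested.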
